A study of Rattus norvegicus with 2 samples.

Results

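MicroRNAs (miRNAs) known mainly from epithelia, sensory organs and endocrine cells were measured in the nucleus accumbens (NAc) of rats given vehicle or alcohol. By the detection rule used here, set from control spots, 8 of the 9 chosen were detected on neither array. The 9 are the 5 members of the miR-200 family (miR-200a, miR-200b, miR-200c, miR-141 and miR-429), the 3 members of the miR-183 cluster (miR-183, miR-96 and miR-182) and miR-375. They were chosen by the name of their probe under a rule that uses no measured value but was set with earlier results of these data known, and they make up 9 of the 349 rat miRNA probes on the arrays. Of all 349 probes, 152 were detected on neither array. The samples came from male Sprague-Dawley rats, with NAc tissue that held both core and shell. Rats of the vehicle group were injected with 500 µl of saline ip bid, and rats of the alcohol group were injected with alcohol at 1 g/kg ip bid, both for 7 days. The data hold 1 array for each group, and the sources used here do not state how RNA from several rats was combined on an array. A difference between the arrays therefore has no replicate check, treatment and array cannot be told apart, and every SD below is technical, over repeat spots of 1 array. In whole tissue, fewer cells that make a miRNA and less of it per cell cannot be told apart either.

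Mature miRNAs pair with messenger RNAs mainly through their seed, bases 2 to 8, so miRNAs that share a seed can act on shared targets. The miR-200 family is known for keeping epithelial cells in their epithelial state, by repressing the transcription factors Zeb1 and Zeb2, and in the nervous system it is known from the olfactory system. The miR-183 cluster is known from hair cells of the inner ear, photoreceptors and sensory neurons. miR-375 is known from pancreatic islets and the pituitary. None of these tissues is the striatum, so the question here is whether the accumbens samples held a measurable amount of these miRNAs, and whether it differed after alcohol.

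The sequences that the probes were designed to capture are given below as the array files list them, 5′ to 3′, with the seed in capitals, because likeness between members decides how far their probes can be read separately.
rno-miR-200b: uAAUACUGccugguaaugaugac
rno-miR-200c: uAAUACUGccggguaaugaugg
rno-miR-429: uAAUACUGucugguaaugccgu
rno-miR-200a: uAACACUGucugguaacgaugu
rno-miR-141: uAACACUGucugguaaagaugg
rno-miR-183: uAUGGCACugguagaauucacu
rno-miR-96: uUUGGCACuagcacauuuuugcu
rno-miR-182: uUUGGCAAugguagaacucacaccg
rno-miR-375: uUUGUUCGuucggcucgcguga
All 9 targets were found inside 1 RefSeq hairpin each in GRCr8, and 5 of them equalled a RefSeq mature entry over their whole length. miR-200b, miR-200c and miR-429 have 1 seed, and miR-200a and miR-141 have another. miR-96 and miR-182 share bases 2 to 7, while miR-183 and miR-375 have seeds of their own. No other probe of the 349 carries any of these seeds. Compared base by base from the 5′ end, the targets of miR-200b and miR-200c differ at 2 of 22 positions. Those of miR-200a and miR-141 also differ at 2 of 22, and those of miR-183 and miR-182 at 4 of 22. RNA of 1 such miRNA may bind the probe of its near relative, which these arrays do not separate. The target of miR-375 has at most 8 bases at the same position as any other member, and its GC content of 54.5% is the highest of the 9, against 39.1% to 48.0% for the rest. The array has no probe for the opposite arm of any of these hairpins.

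The members come from 4 places in the genome, all on the minus strand of GRCr8. miR-200b, miR-200a and miR-429 lie within chr5:171929693-171931533, and miR-200c and miR-141 within chr4:159209540-159209989. The sensory cluster of miR-183, miR-96 and miR-182 lies within chr4:59752249-59756127. miR-375 stands alone at chr9:83906591-83906612. These coordinates come from a match of the listed targets to RefSeq hairpins, since the array files name no genome build.

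Each probe was printed as 9 repeat spots, and the value read is the average density of the pixels in a spot, in scanner units and without background subtraction. Detection was set against 88 mismatched control spots, from 22 control probes named for their mismatches. Their median was 241 with vehicle and 145 with alcohol, with a median absolute deviation (MAD, scaled to match an SD) of 12.2 and 11.4. A spot counted as positive above the median plus 3 MAD, which is 278 with vehicle and 179 with alcohol, and a miRNA counted as detected with at least 5 of 9 positive spots. By this rule 43.3% of the 349 miRNA probes were detected with vehicle and 56.2% with alcohol. Of the 9 members, 0 were detected with vehicle and 1, miR-375, with alcohol. Over the 81 spots of the 9 members, 0 were positive with vehicle and 8 with alcohol, 7 of them spots of miR-375.

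**Figure D1:**
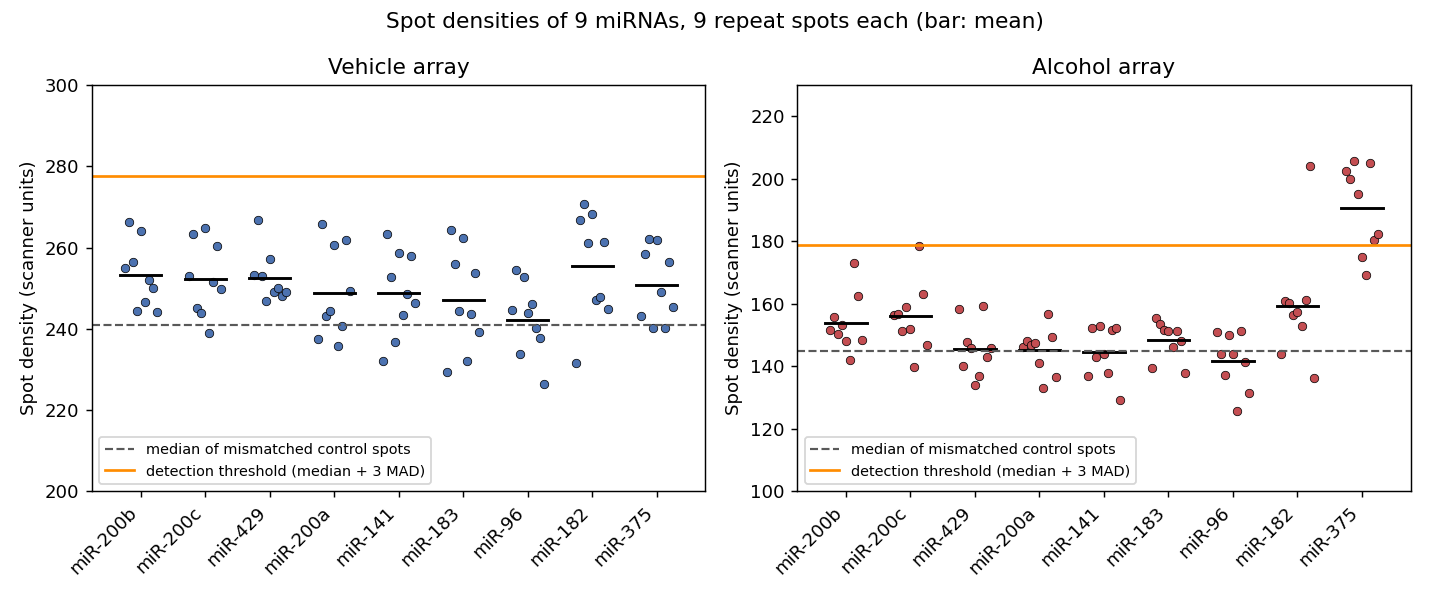
Density of each of 9 repeat spots (points, in scanner units) and their mean (bar) for the 9 miRNAs, with the vehicle array on the left and the alcohol array on the right on axes of different range. With vehicle all 81 spots lie under the orange threshold of 278, and with alcohol 7 spots of miR-375 and 1 of miR-182 lie above 179.

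In the first seed group of the miR-200 family, the probe of miR-200b gave a density of 253 ± 8.07 with vehicle and 154 ± 9.15 with alcohol (SD over 9 spots, as for all densities below). Its spots ran from 244 to 266 with a median of 252 with vehicle, and from 142 to 173 with a median of 152 with alcohol. The probe of miR-200c read 252 ± 9.002 and 156 ± 10.9. All 18 of these spots on each array stayed under the threshold, and the brightest spot of miR-200c on the alcohol array, at 178.6 against 178.9, came closest. The probe of miR-429, which lies in 1 cluster with miR-200b, read 253 ± 6.18 with vehicle and 146 ± 8.63 with alcohol, with no positive spot.

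In the second seed group, the probe of miR-200a read 249 ± 11.3 with vehicle and 145 ± 7.08 with alcohol. The probe of miR-141 read 249 ± 10.5 and 144 ± 8.54. Neither had a positive spot. Over the 5 members of the family, the medians of the 9 spots lay between 0.28 and 0.89 MAD above the mismatched control median with vehicle, and between -0.07 and 1.02 MAD with alcohol. Of the 45 spots of the family, 39 were above the mismatched control median with vehicle and 31 with alcohol. Most spots of the family thus lay above the control median, and all lay under the threshold. The first of these was not particular to the family. Over the 152 probes detected on neither array, which include the family, the median of the spot medians was 245 with vehicle and 148 with alcohol. Those values also lay above the control medians of 241 and 145.

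In the sensory cluster, the probe of miR-183 read 247 ± 12.6 with vehicle and 148 ± 6.13 with alcohol. The probe of miR-96, which in the inner ear acts in hair cell maturation, read 242 ± 8.86 and 142 ± 8.89. Both had no positive spot. The probe of miR-182 read 256 ± 13.2 on the vehicle array, where its spots ran from 232 to 271 with a median of 261. That median, 1.64 MAD above the controls, was the farthest from them of the 9 members on that array. On the alcohol array miR-182 read 159 ± 18.8, with spots from 136 to 204 and a median of 157. A single spot at 204 was positive, and the next brightest stayed under the threshold, so miR-182 did not meet the rule.

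**Figure D2:**
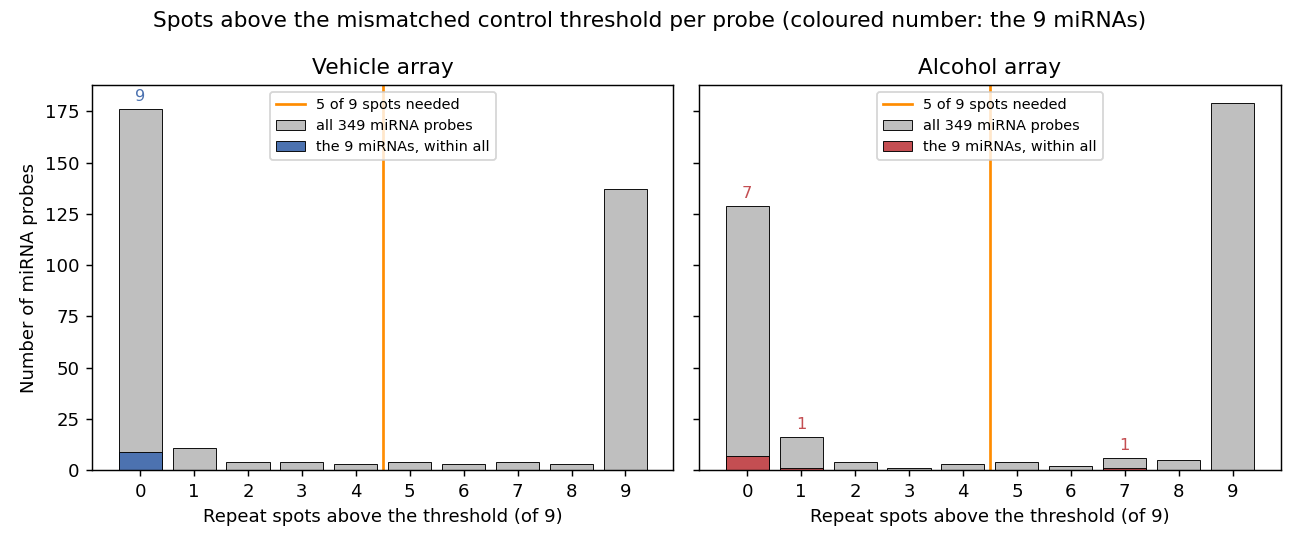
Number of miRNA probes (bars) by how many of their 9 repeat spots exceeded the mismatched control threshold, for all 349 probes in grey and the 9 miRNAs in colour, with their number above each bar. On the vehicle array all 9 miRNAs had 0 positive spots, as did 176 probes in all, and on the alcohol array 7 had 0, 1 had 1 and miR-375 had 7.

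The arrays split most miRNAs into those with all spots positive and those with none. On the vehicle array 176 of 349 probes (50.4%) had 0 positive spots, among them all 9 members. On the alcohol array 129 probes (37.0%) had 0, among them 7 members. The raw density of all 9 members was lower on the alcohol array than on the vehicle array, and so was the density of the controls. The median of the empty spots was 202 with vehicle and 141 with alcohol. Over the 9 members, the median of the spot medians was 249 with vehicle and 151 with alcohol, and over all 349 probes it was 260 and 205. For the 152 probes detected on neither array, which include the other 8 members, it was 245 and 148. Raw densities can therefore not be compared between the arrays without the controls of each.

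The choice of control mattered on the vehicle array. All 81 member spots there were brighter than the median empty spot, and so were the mismatched control spots, whose lowest value was 218. With a threshold from empty spots (mean plus 3 SD, 234), all 9 members and 348 of the 349 probes would count as detected on the vehicle array, whereas on the alcohol array only miR-375 among the 9 would. Printing a probe at a spot thus went with a brighter spot on the vehicle array, also where its sequence was a mismatch. Position on the array moved the readings as well. On the vehicle array the median over the 24 spots of the other 8 members was 245 in the left columns, 262 in the middle columns and 246 in the right columns, and that of the empty spots was 199, 209 and 201. On the alcohol array the same 3 column blocks gave 152, 150 and 143 for the 8 members and 149, 140 and 140 for the empty spots. The median of the 3 spots of miR-375 there was 202 in the left columns, 181 in the middle and 182 in the right, so in the last pair of blocks it lay just above the threshold of 179. The part of position in these readings was not tested.

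miR-375 was the exception. Its spots on the vehicle array ran from 240 to 262 with a median of 249 (mean 251 ± 9.02), inside the range of the mismatched control spots, 218 to 349. The top of that range came from 1 control, Ctr09. Outside Ctr09 the highest mismatched spot was 260, just under the brightest spot of miR-375. On the alcohol array the spots of miR-375 ran from 169 to 206 with a median of 195 (mean 191 ± 13.96). All 9 were above 157, the highest spot median of the other 8 members. Set against the controls of each array, the median spot of miR-375 was 0.65 MAD above them with vehicle and 4.43 MAD above them with alcohol. It was 1 of 46 miRNAs (13.2% of 349) that were detected on the alcohol array only, and just 1 miRNA was detected on the vehicle array only.

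The signal of miR-375 was close to the limit of the rule. Requiring all 9 spots, or 5 MAD in place of 3, left it undetected on the alcohol array. The mismatched controls lie in the middle rows of the array. In these rows 1 of the 3 spots of miR-375 was positive, at 195, and the others read 175 and 169, while in the other rows all 6 of 6 were positive. When the median of the 12 nearest empty spots was first subtracted from each spot, a setting added with the values in view, all 9 spots of miR-375 passed on the alcohol array and 0 on the vehicle array. The thresholds of that setting differed, at 59.9 with vehicle and 17.67 with alcohol. The spots of miR-375 so corrected ran from 28.5 to 58.7 with vehicle and from 17.75 to 63.7 with alcohol, so their ranges overlapped. The mismatched spots themselves were not free of signal on the alcohol array, where 12 of 88 (13.6%) were above the threshold, against 5 of 88 (5.68%) on the vehicle array. Of those 12, 8 belonged to the 2 mismatched probes of control Ctr09, which read from 488 to 3435. The 5 on the vehicle array all belonged to Ctr09, which read from 260 to 349 there. The mismatched spots of Ctr07 read from 157 to 188 on the alcohol array, a range that overlaps the spots of miR-375. What was bound at the probe of miR-375 cannot be read from its density, and the part of mispairing in its signal was not tested.

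**Figure D3:**
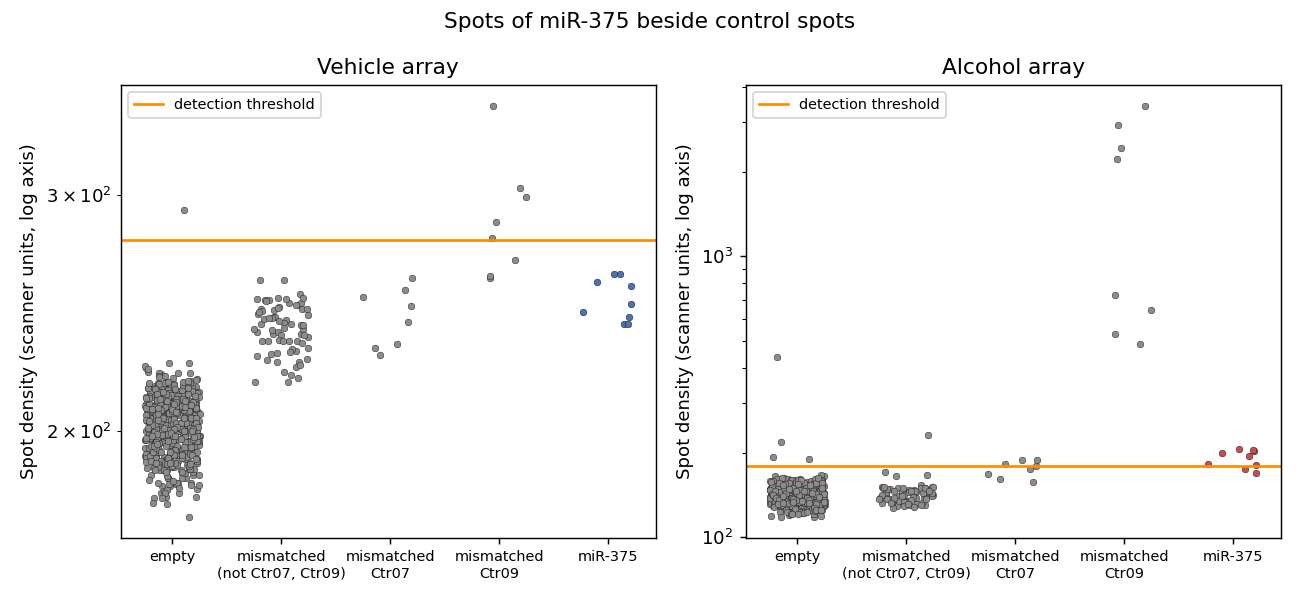
Spot density (log axes of different range, scanner units) of empty spots, mismatched control spots and miR-375 on the vehicle and alcohol arrays, with the detection threshold in orange. On the vehicle array the 9 spots of miR-375 (240 to 262) lie among the mismatched spots, and on the alcohol array (169 to 206) they lie about the threshold of 179, near the mismatched spots of Ctr07 (157 to 188).

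No member counted as changed between the arrays. The rule asked for detection on either array or both, a normalized signal that reached 400 on the brighter one, and a difference of 1.3-fold or more, and by it 9.46% of the 349 probes were higher and 7.45% were lower on the alcohol array. Of the 9 members, 0 were higher and 0 were lower. After background correction and cyclic loess normalization, the highest signal of any member was 120 with vehicle and 127 with alcohol, both those of miR-375. In raw density miR-375 was not the brightest member on the vehicle array, at a mean of 251 against 256 for miR-182. Cyclic loess corrects each probe by its average over both arrays, so the 120 also depends on the alcohol reading. The vehicle value of miR-375 comes from a probe that was not detected there, and it lies under the lowest signal of any miRNA detected on that array, 137. Since the alcohol signal of 127 also lies under 137, not even a lower bound on a fold above 1 can be given. For the other 8, which were detected on neither array, no fold is given. The signal limit of 400 decided none of this, since without it the counts were 0 and 0 as well, and miR-375 was the one member that could have been counted. These values do not show that the members were equal on the 2 arrays, only that a difference was not detectable with these probes.

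The processed signals that the authors deposited, after background subtraction and a cyclic normalization, are on a scale of their own and placed some members higher among the controls than the spot rule did. The members ran from 8.83 (miR-96) to 49.3 (miR-182) on the vehicle array and from 7.14 (miR-96) to 41.3 (miR-375) on the alcohol array. The 22 mismatched control probes ran from 1.02 to 106 on the vehicle array, with a median of 7.61, and from 2.26 to 1639 on the alcohol array, with a median of 11.9. Leaving out the 2 mismatched probes of Ctr09, the highest mismatched probe read 33.4 with vehicle and 35.0 with alcohol. miR-182 and miR-375, at 49.3 and 37.5, were above that value with vehicle, and only miR-375 was above it with alcohol. All 9 members were above the mismatched median with vehicle and 5 of 9 with alcohol. In these values 8 of the 9 members read lower on the alcohol array, with miR-182 at 49.3 and 18.3 and miR-200c at 26.3 and 16.2, and miR-375 read 37.5 and 41.3. Among all 349 miRNA probes, 196 (56.2%) read lower on the alcohol array in these values, as did 101 (66.4%) of the 152 probes detected on neither array and 5 of the 22 mismatched control probes. No fold is given for these readings, since 8 of the 9 members were detected on neither array and miR-375 on 1.

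**Figure D4:**
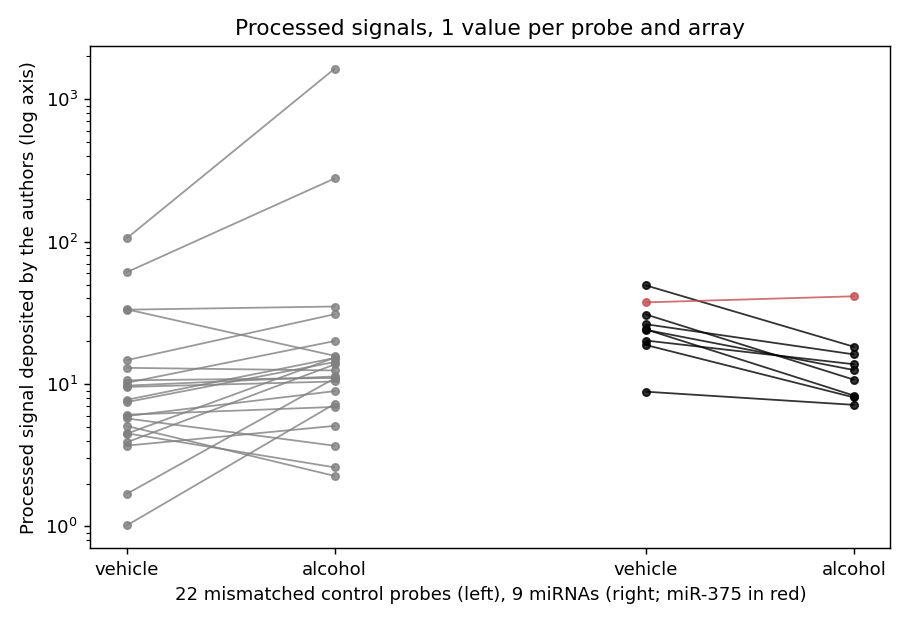
Processed signal deposited by the authors (log axis), 1 value per probe and array joined by a line, for 22 mismatched control probes on the left and the 9 miRNAs on the right. The 9 miRNAs lie between 8.83 and 49.3 with vehicle and between 7.14 and 41.3 with alcohol, within the range of the mismatched probes, and miR-375 (red) is the one that did not read lower on the alcohol array.

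Other miRNAs known from given cell types were read on the same arrays for comparison, though their signals do not measure which cells were present. The 3 neuron miRNAs, miR-124, miR-9 and miR-128, were detected on both arrays. By the rule for changes miR-9 counted as higher with alcohol, at a log2 ratio of 0.717 with an SD of 2.57 over spots. Its lowest vehicle spot read 290, against a median of 37278. That spot enters the average of log2 densities behind the call, and the call without it was not tested. In the processed signals of the authors miR-9 read 27129 with vehicle and 29688 with alcohol, less than 1.3-fold apart. Among the other epithelial miRNAs, miR-203 and miR-205 had 0 positive spots on both arrays, at 246 ± 9.53 and 245 ± 7.72 on the vehicle array, while miR-31 was detected with all 9 spots on both. miR-203 and miR-205 are known from stratified epithelium such as skin. Of the 5 miRNAs listed for choroid plexus and ciliated epithelium, 0 were detected with vehicle and 2 with alcohol, though both counts moved in some other settings. One of the 2 detected was miR-204, at 276 ± 32.1 on the vehicle array with 3 positive spots and at 1568 ± 263 on the alcohol array with 9. miR-204 is known for its abundance in choroid plexus, and it counted as higher with alcohol, by 4.54-fold at the least, against the lowest signal of a miRNA detected on the vehicle array or its own, whichever was higher. The other detected miRNA of this list was miR-34c, which like miR-375 had 0 positive spots with vehicle and 7 with alcohol, at 188 ± 14.5. miR-211, which shares its seed with miR-204, and the ciliated cell miRNAs miR-34b and miR-449a had 0 positive spots on both arrays. Of the 2 neuroendocrine miRNAs, miR-7a was detected with all 9 spots on both arrays, and miR-7b had 3 positive spots with vehicle and 9 with alcohol. The median vehicle spot of miR-7b lay 2.96 MAD above the controls, just under the threshold.

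Of the 6 liver and muscle miRNAs, 2 were detected with vehicle and 1 with alcohol. They were miR-122, with 9 positive spots on both arrays, and miR-133a, with 5 and 0. By the rule for changes miR-122 counted as lower with alcohol, at a normalized signal of 685 with vehicle and 153 with alcohol. Of 4 blood and vessel miRNAs, miR-126 and miR-150 were detected on both arrays, while miR-451 had 0 positive spots on both. The last of the 4, miR-223, had 0 positive spots with vehicle and 2 with alcohol, where its median spot lay 2.64 MAD above the controls and a threshold of 2 MAD would count it as detected. Both oligodendrocyte miRNAs, miR-219-5p and miR-338, were detected on the alcohol array only, with 9 positive spots each. Of these, miR-338 counted as higher with alcohol, by 3.09-fold at the least. Detection on the alcohol array alone was therefore not particular to miR-375, and its relation to the groups of rats was not tested.

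**Figure D5:**
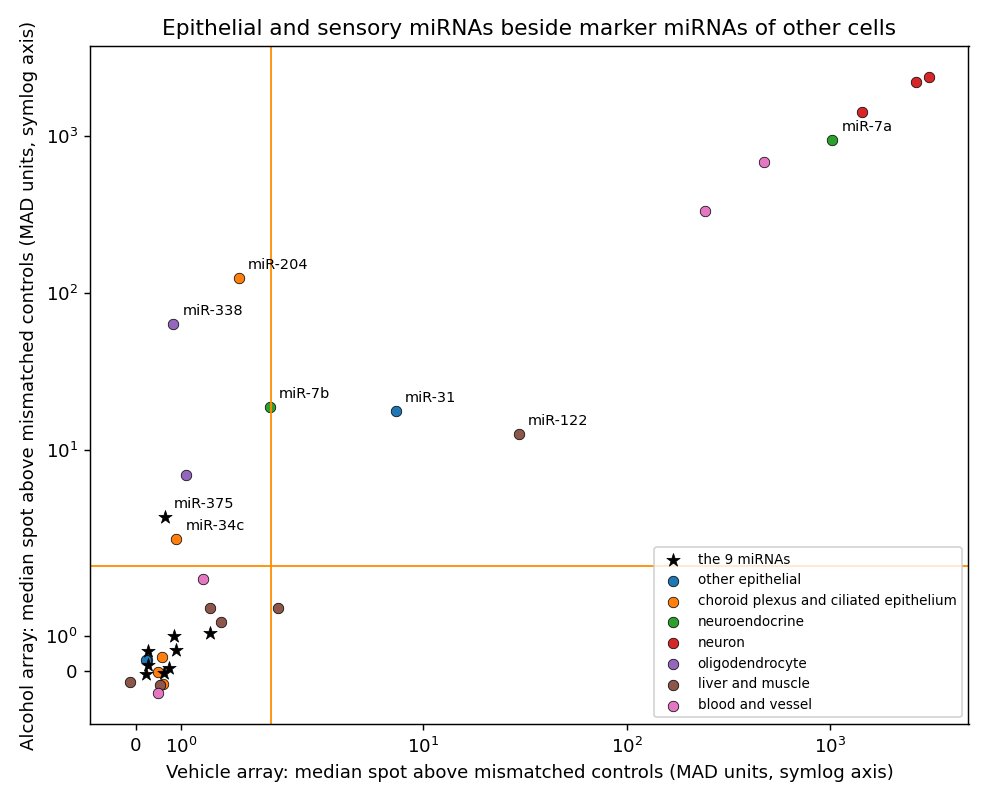
Distance of the median spot from the mismatched control median, in MAD units on symmetric log axes, on the vehicle array (horizontal) and the alcohol array (vertical), for the 9 miRNAs (stars) and 25 miRNAs of other cell types (points), with orange lines at 3 MAD. The stars of 8 miRNAs lie under both orange lines, and miR-375 lies at 0.65 and 4.43 MAD, near miR-34c.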

How the data were processed

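RNA from the NAc was size-fractionated, and the small RNA was tailed, stained with Cy3 and hybridized to 1-colour arrays by a service provider. The authors deposited, for each array, the intensity of every spot as mean pixel density without background subtraction, and 1 processed intensity per probe after background subtraction and a cyclic normalization, whose tool and settings are not given in the sources used here. Detection used the raw spot densities within each array. For the comparison of arrays, densities were corrected with normexp (offset 50, fitted on the foreground of all 3968 spots) in limma 3.58.1 under R 4.3.3, log2-transformed, averaged over repeat spots and normalized with cyclic loess (span 0.7, 3 iterations) over 349 miRNA probes. Other steps used Python 3.11.15. With 1 array per group no test was run, and the number of arrays limits the precision. All 9 members were named, as was every detected miRNA of the lists of other cell types, where miR-219 was read from its 5p probe. The members, lists and detection rule were chosen with earlier results of these data known. The steps were tested on simulated arrays, where all 20 raised and all 20 lowered miRNAs were called (2-fold) and 0 of 100 without signal were detected. The simulated control spots and probes without signal had the same baseline, so the count of 0 followed from the setup. Bright mismatched controls and effects of position were not simulated, and the raised and lowered miRNAs were bright ones. The simulation therefore does not cover miRNAs near the threshold.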

Additional observations from a re-analysis of the deposited data

How the results depend on the processing

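No paired analysis was possible because there is a single array for each of the groups. On the vehicle array 0 members were detected in 7 of 8 other settings, and 9 with the threshold from empty spots. On the alcohol array the count of 1 was 0 with 5 MAD, 0 with the highest mismatched spot (3435) as threshold, 0 when all 9 spots were required, and 2 when 1 spot was enough (miR-182 and miR-375), and it stayed at 1, again miR-375, in the other 4. The unscaled MAD and the subtraction of nearby empty spots were added with the values in view. In the choroid plexus and ciliated epithelium list, the vehicle count moved in 5 of 8 settings, within 0 to 5. Its alcohol count moved in 4 of 8, within 0 to 2. The neuroendocrine vehicle count moved in 5 of 8, from 1 to 2, while the neuron counts moved in 0 of 8. The counts of 0 members higher and 0 lower say little about stability, because 14 of the 15 other settings kept the signal limit of 400 while no member read above 222 in any of them, and the setting without it also gave 0 and 0. Over all 349 probes, the 33 higher and 26 lower ran from 11 to 100 and from 2 to 79. The bound on the fold of miR-375, 0.929, was 0.358 under scaling to the median of detected miRNAs, 0.426 under scaling to the 75th percentile, 0.724 under quantile normalization and 0.615 in the processed signal of the authors. It was above 1 in 2 of 12 settings, at 1.02 both with scaling to the 5S rRNA probes and with the mismatched control median subtracted, so it gives no direction. Both scalings to a percentile moved the median log2 ratio of all probes as well, to -1.43 and -1.18, and for the other changes the cause was not tested. miR-204 counted as higher in all 15 settings, by at least 3.12-fold to 12.3-fold.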
